A study of Dugesia japonica with 157 samples.

Results

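The foremost head tip of the planarian flatworm Dugesia japonica was set against the head directly behind it. The tip was taken as sections 1 to 7 and the head behind it as sections 8 to 19 of 78 serial sections cut across a whole animal from anterior to posterior, out of 157 sections of whole animals in all. The labels give strain AF for both groups and name no treatment, and each library was made from the polyadenylated RNA of 1 section. Sections with a total under 20% of the median total of the 78 sections were dropped, which removed sections 1 and 2 and left 5 tip sections (3 to 7) and all 12 sections behind them. The labels name no replicate animals, so p-values measure the spread between neighbouring sections alone, not that between animals. Section thickness, body landmarks and the age of the animal were not used here.

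The planarian head holds a bilobed brain with a pair of eyes above it, side lobes with sensory cells, and at its very front the anterior pole, a small group of muscle cells whose secreted signals help to pattern the head. Dividing stem cells (neoblasts), from which all other cell types are renewed, are spread through the body but are known to be missing from the region in front of the eyes. The gut reaches forward into the head as a single anterior branch and does not extend to the front margin. A transverse section through the tip therefore holds another mixture of tissues than a section through the brain or the neck.

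Each row of the table is a transcript identifier made of a first part and a suffix, and the files do not pair identifiers with gene names. No sequence, gene function or cell type marker could therefore be matched to a row, and the tip could not be checked against markers of the head. In bulk sections, fewer cells of a type cannot be told apart from less RNA per cell. The level of a row is given as CPM, its count divided by the section total and scaled to 1000000.

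Of the kept head sections the foremost, section 3, had the lowest total. Totals were 216691, 542671, 1001557, 1755117 and 1706806 estimated counts in sections 3, 4, 5, 6 and 7. Sections 8 to 19 had 306746 to 3174236 counts (median 797048). The dropped sections 1 and 2 had 70569 and 136970 counts. The log10 total of the tip sections averaged 5.91 ± 0.382 (SD, n = 5), against 5.92 ± 0.326 (SD, n = 12) behind the tip (exact permutation test over sections, two-sided, p = 0.955, adjusted p over 3 measures 0.955). After thinning to 216691 counts a section, 7469 ± 1923 rows were counted in tip sections (SD, n = 5), against 7090 ± 1283 rows behind (SD, n = 12; exact permutation p = 0.636, adjusted p = 0.955). The 10 most abundant rows of a section took 32.5% ± 4.60 of the total in the tip (SD, n = 5), against 32.1% ± 5.62 behind it (SD, n = 12; exact permutation p = 0.892, adjusted p = 0.955). The ranges of all 3 measures overlapped between the groups, and the smallest p this design can give is 0.000162.

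The comparison asked which transcripts are more or less abundant at the very front of the animal than in the rest of the head. Of 25566 rows, 11703 reached 5 counts in 3 or more of the 17 kept sections and were tested. Of these, 43 rows were higher in the tip (0.367% of the rows tested) and 146 rows were lower (1.25%), 189 rows in all (1.61%), at an adjusted p under 0.05 by edgeR's quasi-likelihood test with Benjamini-Hochberg adjustment. Over all rows tested the median log2 fold change of tip over behind was -0.08. Lower rows thus outnumbered higher rows, but with plain section totals in place of TMM factors the split was 97 higher and 140 lower rows, and the median over all rows moved to 0.14. Single sections weighed on the counts, since 109 rows were called without section 5 and 117 without section 6, and the higher rows numbered 23 without section 4 or section 5, 19 without section 6, 67 without section 8 and 66 without section 10; without section 5 the lower rows numbered 86.

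The 146 rows lower in the tip had a median log2 fold change of -4.67, between -9.85 and -1.41. Their mean level was a median of 13.4 CPM over the rows in the tip, against 216 CPM behind it. In the tip, 22 of them had 0 counts in all 5 sections and a further 15 had 1 to 3 counts, whereas 66 were counted in every tip section. Behind the tip, 104 of the 146 were counted in all 12 sections, and none had over 50% of its summed CPM in a single section. The lowest section behind the tip lay above the highest tip section for 43 of the 146, where 48 of all rows tested (0.41%) showed this.

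The 146 rows together took 1.35%, 1.47%, 1.40%, 1.93% and 2.29% of the counts of sections 3, 4, 5, 6 and 7. Directly behind the tip the same rows took 3.02%, 3.97% and 5.33% of sections 8, 9 and 10, and in sections 14 to 19 they took 11.0%, 14.1%, 16.2%, 15.7%, 17.3% and 15.4%. The lower share in the tip restates how the rows were chosen. The order of sections 8 to 19, which the climb follows, did not enter the choice, but the values of these sections did. One row made up 1.13% to 3.07% of the totals of sections 14 to 19, and without it the list still took 1.34% to 2.27% in tip sections and 2.88% to 15.7% behind.

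**Figure D1:**
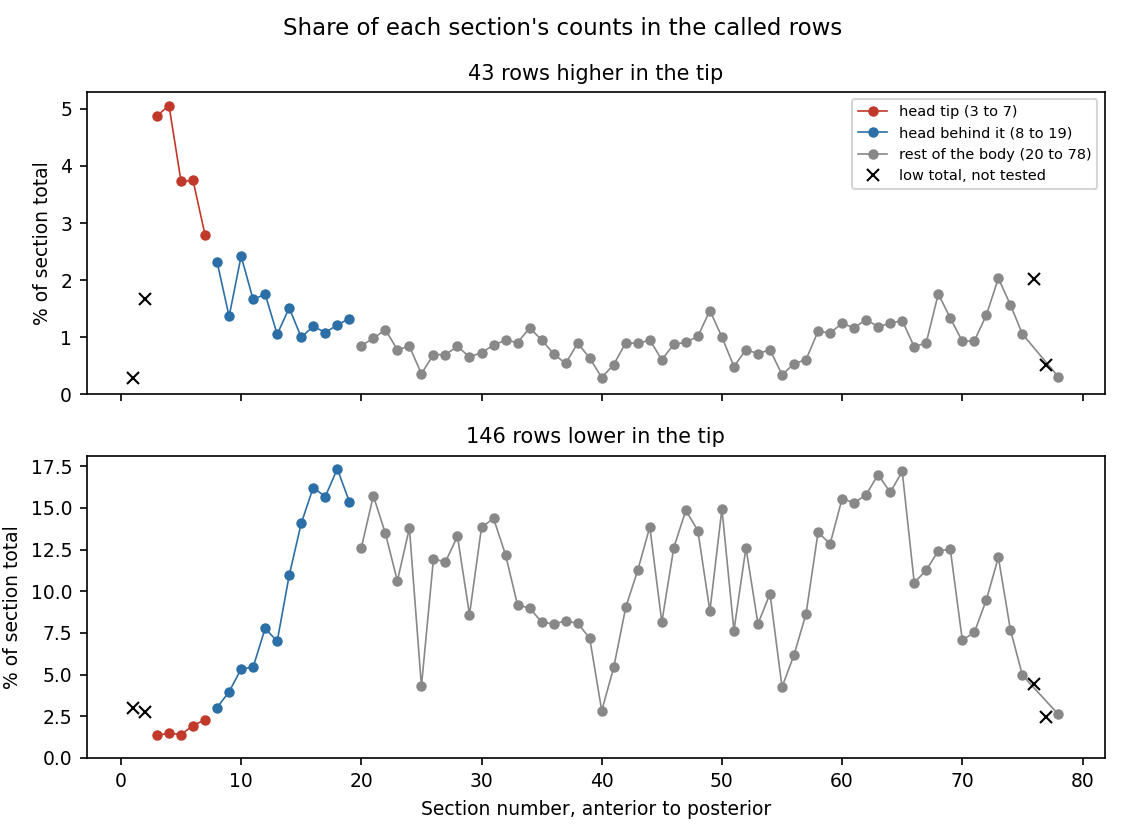
The percent of each section's total count that fell in the 43 rows higher in the tip (upper panel) and in the 146 rows lower in the tip (lower panel), by section number from anterior to posterior. Points are single sections, coloured by group, and crosses are sections dropped for a low total. Among kept sections the lower panel starts at 1.35% in section 3, below the crosses of sections 1 and 2 at 2.99% and 2.78%, climbs to 17.3% in section 18 and stays mostly above the tip over the rest of the body.

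Every row named by rule had 0 counts in its lower group and so passed the filter on low counts only through the other group. The direction of their differences was therefore fixed in advance. DjGI015187_001 had the lowest fitted fold change of these rows. It had 0 counts in tip sections 3, 4, 5, 6 and 7, and 0 counts also in sections 8 and 9 behind the tip. Sections 10 to 19 held 24.6, 43.7, 68.1, 84.8, 70.7, 260, 278, 103, 173 and 111 CPM. The row was thus not counted in the kept tip sections or in the 2 sections next to them, and the groups overlapped only at 0. A floor of 3 counts stood at 13.8 CPM in section 3 and at 7.16 CPM in section 9. The dropped section 2 held 1 count of the row. Its level averaged 0 CPM in the tip and 101 ± 92.4 CPM behind it (SD, n = 12), and it was at least 197-fold lower in the tip against a floor of 3 counts over the 5 tip sections (adjusted p = 0.00144, edgeR). The call was lost under 3 of 39 alternatives, against sections 8 to 13 only (adjusted p = 0.156), with section number in the model (0.167) and in even-numbered sections (0.232), in a range of 8.21e-10 to 0.232.

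DjGI018724_001 switched at the border itself. Its counts were 0 in every tip section, and its level was 38.5, 16.7, 147, 133, 216, 61.9, 93.6, 101, 84.7, 95.8, 26.7 and 52.3 CPM in sections 8 to 19. All 12 sections behind the tip held it, and all 5 tip sections lacked it. It averaged 88.9 ± 56.7 CPM behind the tip (SD, n = 12) and was at least 138-fold lower in the tip (adjusted p = 5.54e-05, edgeR). In the shallowest tip section, section 3, the floor of 3 counts stood at 13.8 CPM, so a level under that could not be seen there, while in sections 6 and 7 the floor was 1.71 and 1.76 CPM. Of 39 alternatives, 1 ended the call, the even-numbered sections alone (adjusted p = 0.0585, range 4.99e-14 to 0.0585).

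Behind the tip the 2 rows differed in shape. DjGI015187_001 rose by 0.56 ± 0.15 (SE) on the log2 scale per section within sections 8 to 19 (adjusted p = 0.0492, edgeR). DjGI018724_001 had a slope of -0.004 ± 0.11 (SE; adjusted p = 0.999, edgeR). Each SE here is the size of the slope divided by the square root of its F statistic, not an error given by the fit.

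**Figure D2:**
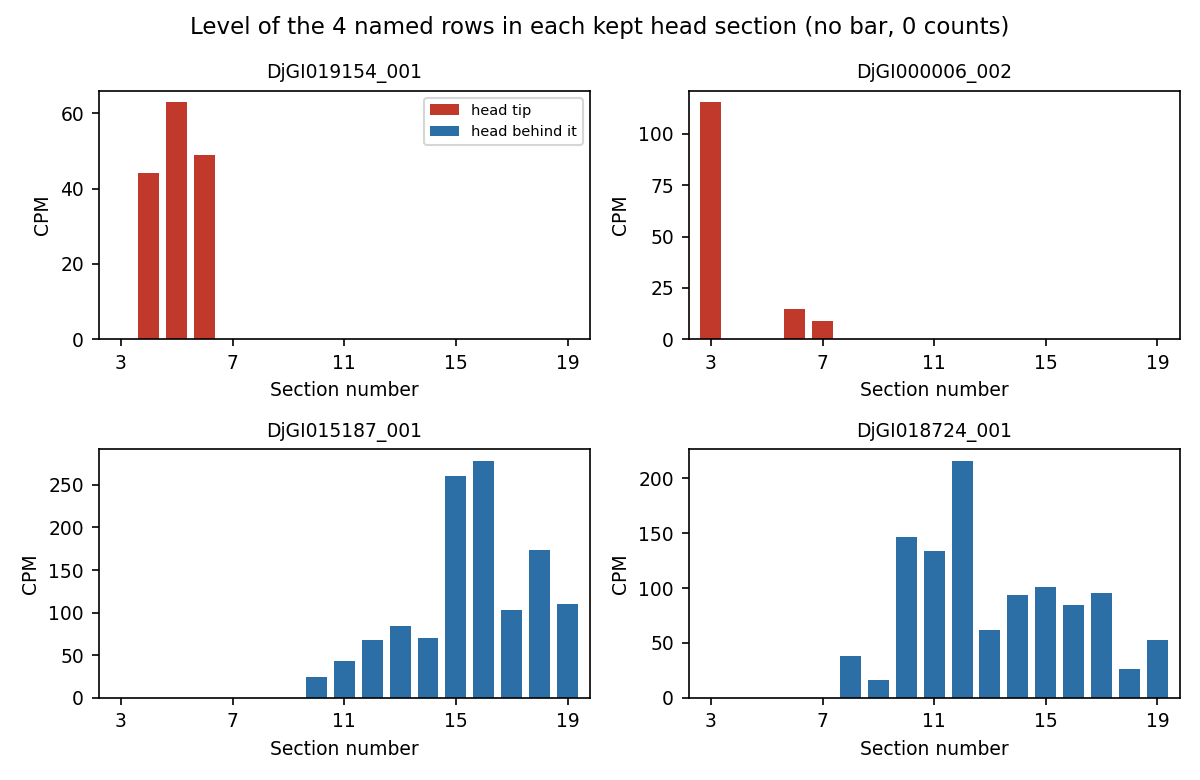
The level in CPM of the 4 named rows in each kept head section, with tip sections 3 to 7 in red and sections 8 to 19 in blue; no bar means 0 counts. The upper rows are seen in 3 of 5 tip sections and in none of the 12 sections behind, and the lower rows are at 0 in the tip and reach 278 and 216 CPM behind it.

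The 43 rows higher in the tip fell into kinds that differed in how steadily they were counted. Of them, 22 were counted in all 5 tip sections and 21 in fewer. The split was made after the values were seen and is a description. The 22 steady rows were abundant, with a median of their mean levels of 523 CPM in the tip and 99.4 CPM behind it. Their median log2 fold change was 1.81, between 0.78 and 5.37.

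The median level of the 22 steady rows was 824, 665, 652, 453 and 411 CPM in sections 3 to 7, and 273, 173, 221, 139, 170 and 81.5 CPM in sections 8 to 13. In sections 14 to 19 it lay between 74.8 and 153 CPM. The median was highest in the foremost kept section; its step between the groups restates how the rows were chosen.

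The other 21 rows were scarce. Their mean level had a median of 13.1 CPM in the tip and 0.0263 CPM behind it, and for 14 of the 21 over 50% of the summed tip CPM came from 1 section. Of the 21, 10 had 0 counts in all sections behind the tip. Their median log2 fold change was 6.03 as fitted and 5.69 with those 10 at the bound set by a floor of 3 counts. In section 3, the shallowest, 4 of the 21 were counted, and in sections 5, 6 and 7 these were 16, 19 and 17. Over all 43 higher rows, 15 had their lowest tip section above their highest section behind, where 32 of all rows tested (0.273%) did.

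DjGI019154_001 is one of these scarce rows. It had 0, 44.2, 62.9, 49.0 and 0 CPM in tip sections 3 to 7, which stand for 0, 24, 63, 86 and 0 counts, and 0 counts in all 12 sections behind. It was counted in 3 adjacent tip sections, so the groups overlapped at 0. Its mean was 31.2 ± 29.3 CPM in the tip (SD, n = 5), at least 144-fold above the sections behind against a floor of 3 counts over them (adjusted p = 0.0126, edgeR). The call was lost against sections 8 to 13 only (adjusted p = 0.229) and with section number in the model (0.787), 2 of 32 alternatives with adjusted p between 0.00217 and 0.787. In 7 more it failed the filter on low counts and could not be tested, among them leaving out section 4, 5 or 6, the tip sections that held it.

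DjGI000006_002 had 115, 0, 0, 14.8 and 8.79 CPM in tip sections 3 to 7 and 0 counts in all 12 sections behind. Section 3, where 25 counts gave that value, held 83.0% of its summed tip CPM. The mean was 27.8 ± 49.4 CPM in the tip (SD, n = 5), at least 55.0-fold above the sections behind (adjusted p = 0.0246, edgeR), and 7 of 30 alternatives ended the call (adjusted p from 0.000845 to 0.814). In 9 more it failed the filter, among them leaving out section 3, 6 or 7, the tip sections that held it. Its identifier shares its first part with 5 other rows of the table, 6 in all, so the share of reads given to each of them is uncertain. Among those others, DjGI000006_001 and DjGI000006_005 were tested and not called (adjusted p = 0.886 and 0.914, edgeR). Their log2 fold changes were 1.46 and 1.32, and they had 55 and 13 counts behind the tip.

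**Figure D3:**
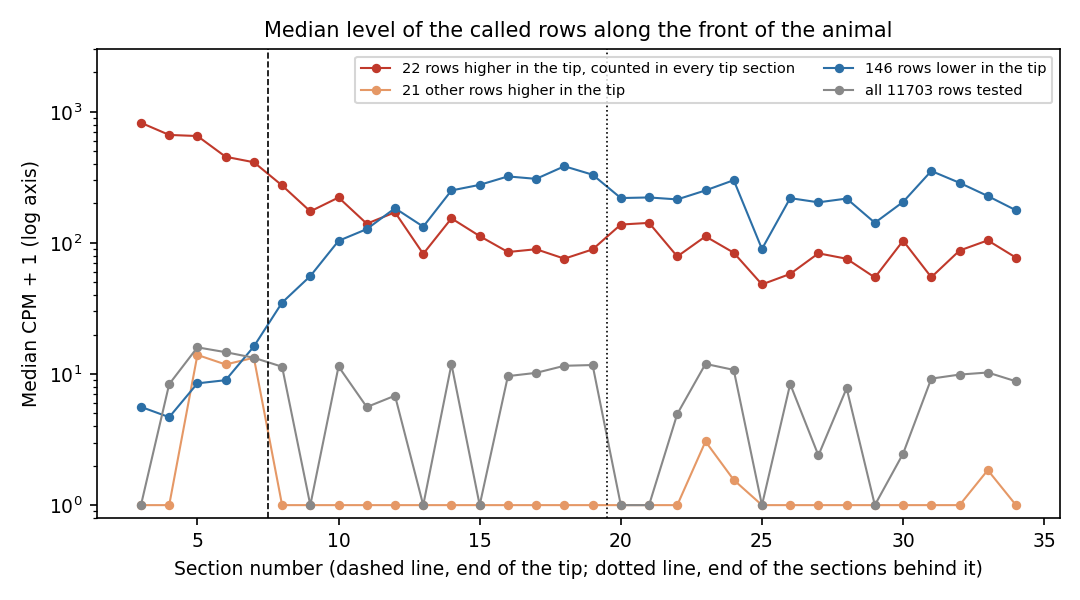
Median level over rows, as CPM + 1 on a log axis, in each kept section from 3 to 34, for the 22 higher rows counted in every tip section, the 21 other higher rows, the 146 lower rows and all 11703 rows tested. The 22 rows descend from 824 CPM in section 3, and the 146 rows climb from 4.61 CPM in section 3 to 383 CPM in section 18.

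Whether levels changed within each group was tested in the same rows with a slope in section number for each group. Within sections 8 to 19, 266 rows had a slope (2.27% of the rows tested), 217 rising (1.85%) and 49 falling (0.419%) toward the trunk (edgeR, adjusted p under 0.05). Of the 146 rows lower in the tip, 68 were among the rising ones, and 144 had a slope above 0, against 58.0% of all rows tested. Their median slope was 0.28 on the log2 scale per section, against 0.03 over all rows. The values of sections 8 to 19, though not their order, had entered the choice of the 146 rows. Of the 43 higher rows, 1 had a falling and 0 a rising slope by the same test, and 10 of the 43 had 0 counts there and so no slope. Totals were 306746 to 1056266 counts in sections 8 to 13 and 407303 to 3174236 counts in sections 14 to 19. With the section total in the model 58 rising and 74 falling slopes were called, so rising slopes no longer outnumbered falling ones in that model.

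Within tip sections 3 to 7, 15 rows had a slope (0.128%), 14 rising and 1 falling from the front backward, and 6 of the 15 were among the 146 lower rows and 0 among the 43 higher rows. The median slope over all rows was 0.35 on the log2 scale per section, in sections whose totals were higher toward the back, and it was 0.07 with the section total in the model and 0.19 after thinning. Those fits called 12 rising and 2 falling slopes, and 14 rising slopes. With sections 1 and 2 included, 286 slopes were called.

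More rows differed from the far sections than from the near ones, a difference between counts that was not itself tested. Against sections 8 to 13 alone the tip differed in 28 of 9481 rows (0.295%), 2 higher and 26 lower. Against sections 14 to 19 alone it differed in 401 of 10949 rows (3.66%), 65 higher and 336 lower. Both comparisons share the 5 tip sections, and each has 6 sections behind. The near sections had totals of 306746 to 1056266 counts and the far ones 407303 to 3174236 counts. Depth thus differs along with distance, and its part was not tested. With 1 common slope in section number in the model, the tip stood apart from that slope in 57 higher and 12 lower rows, and 11 of these 69 were among the 189, all of them lower rows.

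The likeness of whole sections was described over all 11703 rows, as the correlation of log2(CPM + 1) between sections after each row was centred on its mean over the 17 sections. Centring puts sections that are not alike at -0.0625, and the mean over all pairs was -0.0604, so values are read against that level and not against 0. Sections 4, 5, 6 and 7 had mean correlations of 0.0619, 0.0785, 0.0847 and 0.0509 with the other tip sections, against -0.121, -0.116, -0.101 and -0.0888 with the sections behind. Section 3 had -0.00795 with the tip and -0.113 with the sections behind. Each tip section thus lay above the mean of all pairs with the tip and below it with the sections behind. Section 8, the first behind the border, had -0.000045 with the tip and -0.0980 with the other sections behind. Section 10 was also nearer to the tip, with -0.0443 against -0.0596, while section 9 and all 9 sections from 11 to 19 were nearer to the sections behind. The points share depth differences between sections, and the part of depth was not tested. With all sections thinned to 216691 counts section 8 had -0.00762 with the tip and -0.0915 with the sections behind.

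**Figure D4:**
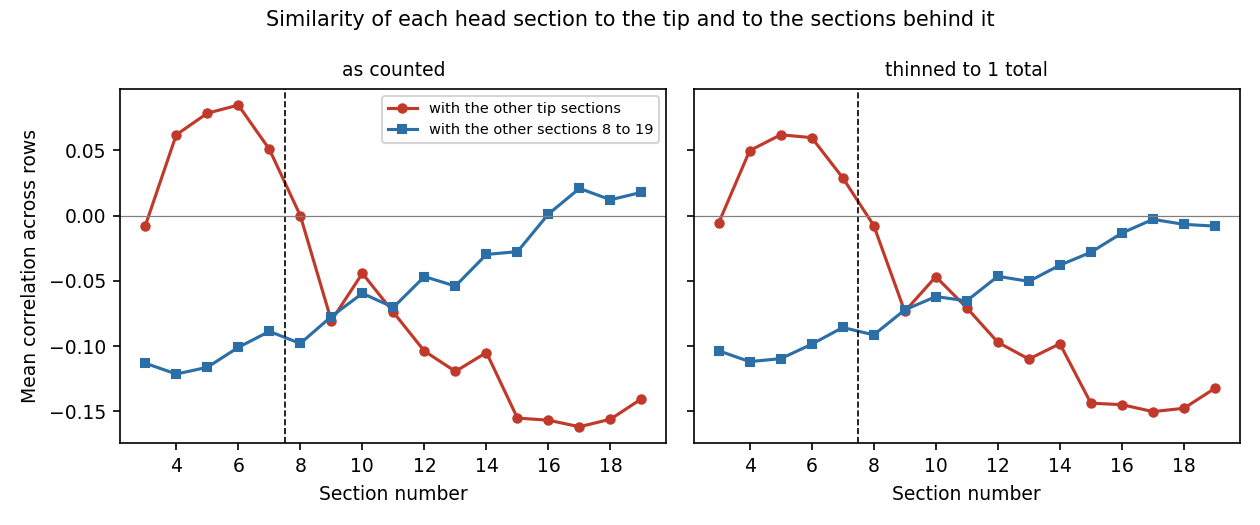
Mean correlation of each kept head section with the 5 tip sections and with the 12 sections behind them, itself left out, from log2(CPM + 1) centred per row over 11703 rows, as counted (left) and after thinning to 216691 counts (right). Sections 3 to 8 and section 10 lie nearer to the tip, and sections 12 to 19 lie nearer to the head behind. Sections 9 and 11 differ little between the groups.

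The rest of the body was not used to choose either list, but the tip was. Comparisons of the tip with the rest of the body therefore partly restate the choice of rows. In the 57 kept sections from 20 to 78, the mean level of the 146 lower rows had a median of 204 CPM, close to the 216 CPM of sections 8 to 19 and far from the 13.4 CPM of the tip. All 146 were higher in the rest of the body than in the tip, as were 3848 of all 11703 rows tested. For 127 of the 146 (87.0%) the head behind the tip and the rest of the body were within 2-fold of each other, against 66.1% of all rows tested. These shares are not matched for level, since the median over all rows tested was 11.7 CPM in sections 8 to 19. The running mean over 5 sections was highest in sections 8 to 19 for 60 of the 146 rows and in sections 50 to 64 for 59, against 3006 and 2175 of the 11703 rows.

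As a share of the section total, the 146 rows had a median of 12.2% in sections 20 to 34, 8.22% in sections 35 to 49, 12.8% in sections 50 to 64 and 10.0% in sections 65 to 78. The lowest single section of these had 2.60%, above the 2.29% of the highest kept tip section.

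The 2 named lower rows were found along most of the body. DjGI015187_001 was counted in 52 of the 57 sections from 20 to 78, at 98.1 ± 65.5 CPM (SD, n = 57). DjGI018724_001 was counted in 53 of the 57, at 61.6 ± 41.3 CPM (SD, n = 57).

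The higher rows were set against the rest of the body likewise. All 43 had a mean in the tip over 2 times their mean in sections 20 to 78, as had 40.5% of all rows tested. The 43 were chosen for high tip values, so this too partly restates the choice. The running mean peaked in the tip for 42 of the 43, against 27.4% of all rows tested, though the choice of rows leaves little room for a peak in sections 8 to 19. The 22 steady rows had a median of 523 CPM in the tip, 99.4 CPM behind it and 65.4 CPM in the rest of the body. The 21 scarce rows had 13.1 CPM in the tip, 0.0263 CPM behind it and 0.846 CPM in the rest of the body. They were counted in a median of 12 of the 57 sections. Since the rows were called for their low level behind the tip, the step between that level and the rest of the body is a description only.

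DjGI019154_001 was counted in 24 of the 57 sections from 20 to 78, at a mean of 8.99 ± 18.7 CPM (SD, n = 57), with its highest level of 117 CPM in section 78, the last of the axis. It is the 1 higher row whose running mean peaked outside the tip, at section 25. DjGI000006_002 was counted in 17 of the 57, at 1.12 ± 2.97 CPM (SD, n = 57).

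As a share of the total, the 43 higher rows took 4.88%, 5.06%, 3.73%, 3.75% and 2.79% of tip sections 3 to 7, against 0.999% to 2.42% (median 1.35%) of sections 8 to 19. Medians further back were 0.841%, 0.892%, 1.00% and 1.17% in sections 20 to 34, 35 to 49, 50 to 64 and 65 to 78. The highest single section there had 2.03%, below all kept tip sections. The most abundant of the 43 rows took 0.586% to 1.55% of tip sections, and without it the list took 2.205% to 3.81% in the tip and 0.733% to 1.75% behind.

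Sections 1 and 2, dropped for their low totals, lie farther forward still. The 43 higher rows took 0.285% and 1.67% of their counts, below every kept tip section. The 146 lower rows took 2.99% and 2.78%, above every kept tip section and just below the 3.02% of section 8. The 10 most abundant rows took 59.2% and 53.6% of their counts. With both sections in the fit 26 rows were higher and 183 lower in the tip.

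Rows that share the first part of their identifier were also compared. The 146 lower rows held 120 first parts, and 12 of these had more than 1 row in the list, 38 rows in all. A further 26 tested rows shared a first part with the lower list, and 23 of them had a fold change below 0, against 53.1% of all rows tested. The 43 higher rows held 42 first parts. Of 9 other tested rows that share them, 8 had a fold change above 0, against 46.9% of all rows. Where rows of 1 first part come from 1 gene, their reads may have been split between them, so these counts are not independent.

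The filter on low counts let 40 of the 146 lower rows pass only through the sections behind the tip, and 19 of the 43 higher rows only through the tip. Over all rows tested, 638 passed only through the sections behind and 34 only through the tip. Rows of this kind were bound to differ in the direction in which they passed. The named rows DjGI015187_001, DjGI018724_001, DjGI019154_001 and DjGI000006_002 are all of this kind.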

How the data were processed

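RNA of serial sections of Dugesia japonica was sequenced as 157 libraries, 78 along the anterior-posterior axis and the rest along the dorsal-ventral and left-right axes. RNA was taken with the Direct-TRI method and libraries were made by Lasy-Seq v1.1, per the labels' protocols. Salmon, BWA 0.7.17-r1188, bcl2fastq 2.20.0 and fastp 0.21.0 were used, per the submitters' processing notes; what each did, and the transcripts counted against, is not given in the sources used here. The authors deposited estimated counts per transcript row, of which 430 values (0.0216%) in the anterior-posterior table were not whole and were rounded. No molecular identifiers are described, so floors of 3 counts cover counting error only.

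Columns carry a section's description with a suffix. The 7 names of sections 1 to 7 match, with punctuation ignored, the description of another section that has its own column, so they were numbered by the number in the name. Members and lists were chosen with earlier results of these data known. The marker lists could not be matched to identifiers, and no marker was looked at.

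Sections 1 to 7 were compared with 8 to 19 in R 4.3.3 by edgeR 4.0.16 (TMM, quasi-likelihood test, Benjamini-Hochberg over all rows tested, adjusted p under 0.05). The code was run on simulated counts, drawn independently for each section and with changes only in more abundant rows. That run does not test the method for serial sections or scarce rows. Alternatives used limma 3.58.1 and DESeq2 1.42.0. The named rows are, in each direction, the 2 called rows of largest fold change that averaged 10 CPM or more in the higher group, were counted in over 50% of its kept sections and had the same sign of difference in odd-numbered and in even-numbered sections. A fit without sections 3 and 4, and limma on section totals, were added after seeing the data. Library numbers follow section order, so a drift in library preparation cannot be told apart from position.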

Additional observations from a re-analysis of the deposited data

Results flagged for a closer look

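Of 7 sets of kept tip values checked for a sample far from the others, 1 stood out, where chance flags about 1 in 20. DjGI000006_002 had 115 CPM in tip section 3, and the gap to the next tip section was 0.872 of the range of the 5 sections, above the critical value of 0.71. Section 3 is the shallowest kept section, with 216691 counts.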

How the results depend on the processing

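The numbers of rows called were 189 in all, 43 higher and 146 lower in the tip. They stayed within 1.5 times under 29, 22 and 31 of 39 alternatives, which compares numbers and not the rows themselves. DESeq2 and limma each called 60 higher rows, with 23 and 24 of the 43 among them. Of the 146 lower rows they called 146 and 126. With section number in the model 57 higher rows were called, 0 of them among the 43. DESeq2 called 425 rows, 365 of them lower. Higher rows numbered 97 with section totals only, 116 with limma on section totals, 26 with no section dropped, 65 after thinning, 20 with the tip ending at section 6 and 78 with it ending at section 8. With the section total in the model 286 rows were called, 90 higher. Against sections 8 to 13 the counts were 28, 2 and 26 in all, higher and lower, against sections 14 to 19 they were 401, 65 and 336. With section number in the model they were 69 in all and 12 lower. Odd-numbered sections gave 67, 6 and 61, and even-numbered ones 5, 0 and 5, with 655 rows at an unadjusted p under 0.05 (edgeR). Without sections 3 and 4 they were 73, 6 and 67. Leaving out 1 section at a time gave 109 (without section 5) to 234 (without section 8) rows in all, 19 (without section 6) to 67 (without section 8) higher and 86 (without section 5) to 167 (without section 8) lower. Without section 6 all calls numbered 117, and higher rows were 23 without section 4, 23 without section 5 and 66 without section 10. Slopes within sections 8 to 19 numbered 132 with the section total in the model, 103 under a filter of 10 counts in 5 sections and 132 after thinning. Slopes within the tip numbered 286 with no section dropped and 64 by limma. Differences that turned sign, none past the threshold in either form, were the log10 total (0.191) and the share of the 10 most abundant rows (-2.51) against sections 8 to 13, and the rows counted (-663) with no section dropped. The cause of these shifts was not tested.

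No paired analysis was possible because the sections of the groups share no replicate numbers. With 5 tip sections of unequal depth, a row below 13.8 CPM in section 3 falls under the floor of 3 counts there.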

Other observations

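The sections of each other axis were divided by number into 3 equal parts. These axes were cut from whole animals, so a section of them can mix head and body, and the labels place no head tip in them. The 146 rows lower in the tip took a median of 12.6% of the counts in the middle part of the dorsal-ventral sections (n = 8), against 4.52% in the dorsal part (n = 5) and 3.51% in the ventral part (n = 8). Along the left-right axis they took 10.3% in the middle part (n = 15), against 7.41% in the right part (n = 8) and 5.82% in the left part (n = 14). The 43 higher rows took 0.591% in the middle part of the dorsal-ventral axis, against 0.840% in the dorsal and 1.70% in the ventral part. On the left-right axis they took 1.05% in the middle part, against 1.11% in the right and 1.61% in the left part. Single sections ranged widely, and some had shares like those of the tip. The higher rows took 0.495% to 2.95% of ventral and 0.884% to 4.08% of left sections, against 2.79% to 5.06% of kept tip sections. The lower rows took 1.77% to 6.48% of ventral and 1.31% to 10.3% of left sections, against 1.35% to 2.29% of kept tip sections. These are descriptions, with no test.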
